A study of Mus musculus with 4 samples.

Results

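Fatty acid oxidation genes and targets of the peroxisome proliferator-activated receptors (PPARs) were described across the cell classes of the mouse pituitary. The module holds 36 genes of the 55357 in the deposited gene table, and all 36 were found there by symbol. They are 5 genes of the carnitine shuttle, 17 of beta-oxidation, 6 of lipid uptake and storage, 4 for the PPAR receptors and the coactivator Ppargc1a, and 4 other PPAR targets. Pituitaries came from male mice that were 4 weeks old at the start and then spent 12 weeks on a high-fat diet (HFD, 2 libraries) or a normal diet (ND, 2 libraries). Each library pooled 3 pituitaries, and no strain is given in the sources used here. All libraries are also labelled with a gonadotroph line, whereas tissue and protocol describe the whole gland, and cells of all 6 hormone classes were found.

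Transcripts were counted as unique molecular identifiers (UMIs) from single-cell 3' libraries. The matrix joins all libraries, with 346690898 UMIs in 40406 barcodes, and its barcodes carry a final number, 1, 2, 3 or 4. No label or file used here ties these numbers to a library or a diet, so no diet comparison was made and no test was run. The barcodes with each number are called sets 1 to 4. They held from 81621358 to 92665029 UMIs, and 156 barcode sequences occurred in more than 1 set. The sets are not replicates of a condition. Levels are UMIs scaled to 1000000 UMIs of a class (CPM), pooled over the sets and with the range over them, and 95% exact Poisson intervals cover counting error only. Levels were compared between classes within a gene, never between genes.

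Beta-oxidation shortens fatty acids inside mitochondria and yields acetyl-CoA and reduced electron carriers. Long chains enter as carnitine esters through CPT1, a translocase and CPT2, and are then cut by acyl-CoA dehydrogenases, hydratases, hydroxyacyl-CoA dehydrogenases and thiolases. PPARs are nuclear receptors that bind fatty acids and pair with retinoid X receptors on a direct repeat of the half-site AGGTCA, called DR1 when 1 base separates the copies. Their known targets include oxidation enzymes in liver and muscle, and lipid uptake and droplet genes in macrophages and fat.

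Classes were named from marker genes, and no member was among the genes used to cluster the cells. The 12 classes compared held 32401 of 36006 kept cells. They were somatotroph-, lactotroph-, corticotroph-, melanotroph-, gonadotroph- and thyrotroph-like cells, stem or folliculostellate-like (stem/FS-like) cells, and endothelial-, fibroblast-, macrophage-, T or NK- and B cell-like cells. From 7 of 10 markers in T or NK-like to 8 of 8 in gonadotroph- and macrophage-like cells passed the naming thresholds. In stem/FS-like cells 8 of 10 did, without Fxyd3 and the folliculostellate marker S100b. Class sums ran from 295064 UMIs in B cell-like to 142921099 in somatotroph-like cells, and median UMIs per cell from 1472 to 14318. Hormone genes took 44.4% of somatotroph-like UMIs and 22.2% of lactotroph-like UMIs, which lowers the CPM of other genes there. Pituicyte-like (240) and proliferating-like (80) cells had fewer than 20 cells in set 2 and were not compared, and 3285 cells (9.12%) stayed unnamed.

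Promoters of 5 members are shown as examples of genes with their highest level in stem/FS-like or macrophage-like cells in every set. Each is the 250 bases before a RefSeq transcription start (GRCm38.p6), written 5' to 3' on the gene's strand. Capitals mark the half-site, which here reads TGACCT because it lies on the opposite strand. Acadm, Pdk4 and Acot1 were highest in stem/FS-like cells, and lie at chr3:153944644-153944893 (minus strand), chr6:5496279-5496528 (minus) and chr12:84009252-84009501 (plus). Plin2 and Cd36 were highest in macrophage-like cells, and lie at chr4:86670060-86670309 (minus) and chr5:17835897-17836146 (minus).
Acadm: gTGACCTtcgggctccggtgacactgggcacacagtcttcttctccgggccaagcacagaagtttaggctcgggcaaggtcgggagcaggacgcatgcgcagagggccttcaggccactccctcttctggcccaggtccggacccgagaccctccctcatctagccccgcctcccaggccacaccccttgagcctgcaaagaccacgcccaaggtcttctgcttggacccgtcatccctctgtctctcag
Pdk4: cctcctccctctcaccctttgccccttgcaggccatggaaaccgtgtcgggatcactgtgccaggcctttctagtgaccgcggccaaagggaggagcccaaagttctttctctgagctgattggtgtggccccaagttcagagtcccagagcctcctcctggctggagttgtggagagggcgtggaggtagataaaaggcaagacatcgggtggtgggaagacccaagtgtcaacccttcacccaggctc
Acot1: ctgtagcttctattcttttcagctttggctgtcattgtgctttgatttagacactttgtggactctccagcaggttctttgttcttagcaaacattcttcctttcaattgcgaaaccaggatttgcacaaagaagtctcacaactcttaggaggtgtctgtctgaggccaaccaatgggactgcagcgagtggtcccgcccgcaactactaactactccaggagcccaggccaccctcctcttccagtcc
Plin2: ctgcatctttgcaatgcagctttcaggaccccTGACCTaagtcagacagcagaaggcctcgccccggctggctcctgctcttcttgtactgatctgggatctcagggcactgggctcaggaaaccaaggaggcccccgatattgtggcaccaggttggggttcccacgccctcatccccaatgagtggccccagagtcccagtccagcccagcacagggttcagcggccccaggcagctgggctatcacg
Cd36: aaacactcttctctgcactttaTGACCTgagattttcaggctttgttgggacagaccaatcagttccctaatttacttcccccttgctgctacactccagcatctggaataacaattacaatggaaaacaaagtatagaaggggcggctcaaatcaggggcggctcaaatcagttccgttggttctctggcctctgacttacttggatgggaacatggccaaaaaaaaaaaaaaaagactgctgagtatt

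AGGTCA was searched on both strands of these windows. It occurred in 1 place in the Acadm, Plin2 and Cd36 windows, and these letters are not in the Pdk4 and Acot1 windows. Nor are they in the windows of Acadl, Eci2 and Ppara, which were also highest in stem/FS-like cells and are not printed. RefSeq windows were matched for 30 members, and 8 of these had the half-site in at least 1 window (Acadm, Acadvl, Cd36, Cpt1a, Cpt1c, Echs1, Plin2 and Pparg). Pparg, Ppard and Ucp2 were also highest in macrophage-like cells in every set, and of these only Pparg had the half-site. Counted by window, 9 of 32 member windows had it, and 14.0% of all 32851 windows. DR1, searched as 2 copies of AGGTCA with any 1 base between them, occurred in 0.0335% of all windows and in no member's window. A match is a description of the letters, not a binding site.

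A gene was said to lead in a class when that class had its highest CPM in each of the 4 sets. Of the 36 members, 35 had the 100 UMIs over the 12 classes needed to enter this count, and 18 of them led in some class, where 31.6% of all 18725 genes counted did. A lead of at least 2-fold over the next class in every set was found for 6 members (Etfa, Plin2, Fabp4, Pparg, Pdk4 and Acot1), where 8.86% of all genes had one. The other member, Cpt1b, the muscle form of carnitine palmitoyltransferase 1, had 19 UMIs over the 12 classes, and reads of it may have been lost because the end of its transcript also lies in Gm44502.

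**Figure D1:**
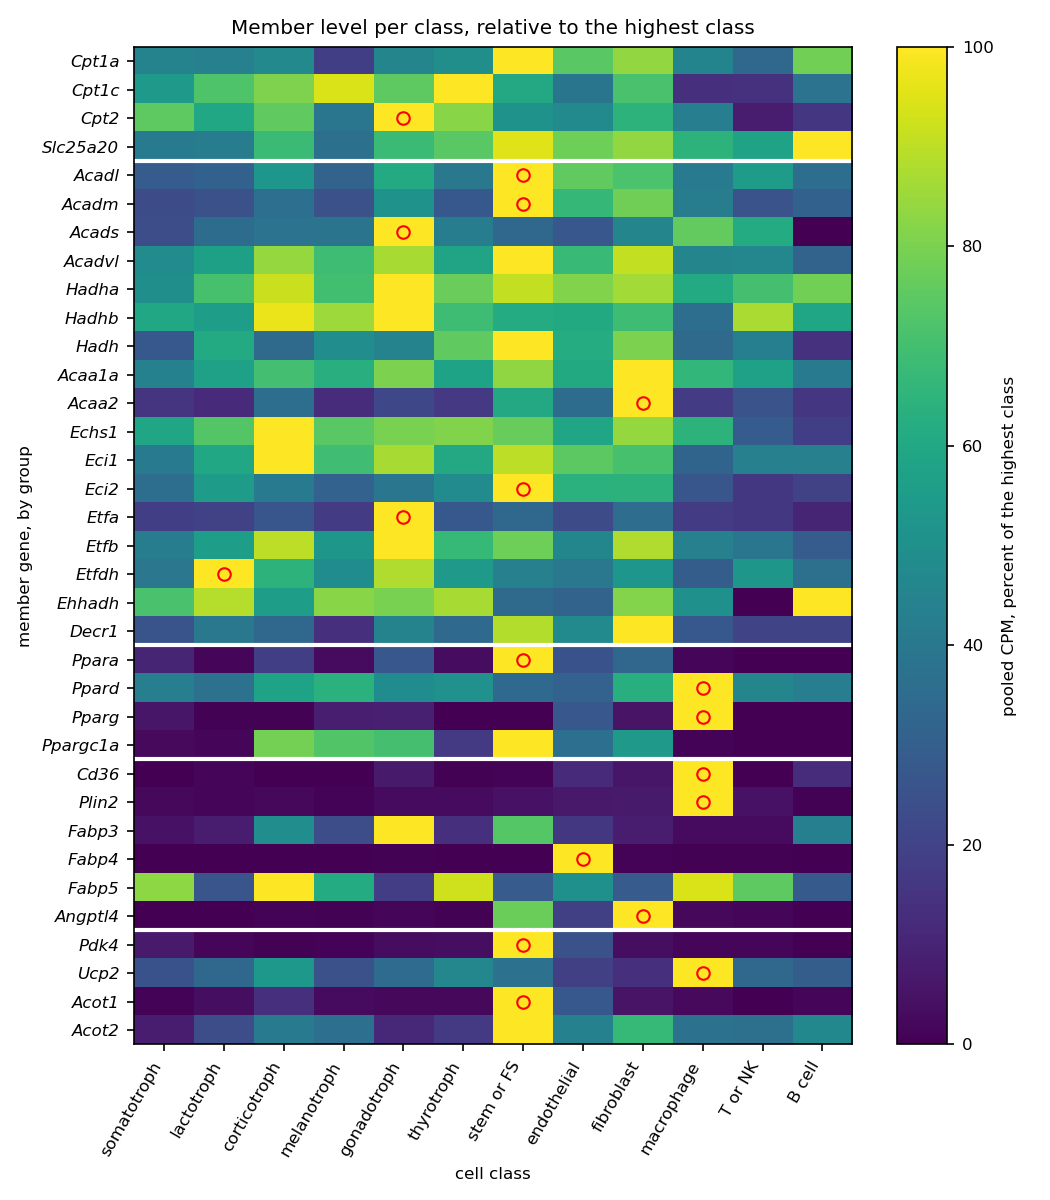
Pooled level of the 35 counted members in 12 cell classes, as a percent of the gene's own highest class (colour), with white lines between the carnitine shuttle, beta-oxidation, receptor, uptake and storage, and other target groups. Red circles mark the 18 genes that led in the same class in all 4 sets. The enzyme rows hold intermediate colours in most classes, while Plin2, Fabp4, Pdk4 and Acot1 are near 0 in most classes.

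Among the 22 carnitine shuttle and beta-oxidation genes, 21 were counted and 8 led in a class, where 31.6% of all genes did. The stem/FS-like class took 3 of the 21 (Acadl, Acadm and Eci2), where 3.72% of all genes led in that class. The gonadotroph-like class also took 3 (Cpt2, Acads and Etfa), where 3.51% of all genes did. Acaa2 led in fibroblast-like cells (3.54% of all genes) and Etfdh in lactotroph-like cells (1.56% of all genes). The other 13 counted enzymes had different highest classes in different sets. No enzyme led in somatotroph-, corticotroph-, melanotroph-, thyrotroph-, endothelial-, macrophage-, T or NK- or B cell-like cells, where 0.401%, 3.56%, 1.88%, 2.17%, 3.59%, 3.25%, 3.02% and 1.41% of all genes led. With so few genes these counts describe the list and were not tested.

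The acyl-CoA dehydrogenases carry out the first step of each round, and the genes for the long- and medium-chain forms were highest in stem/FS-like cells. Acadl, the long-chain form, was 121 CPM there (interval 117 to 127), with 118, 128, 123 and 116 CPM in sets 1 to 4. Endothelial-like cells followed with 91.9 CPM (88.5 to 97.9 over the sets), fibroblast-like cells with 87.2 and gonadotroph-like cells with 74.1 CPM. The stem/FS-like values lay above those of every other class in each set, and somatotroph-like cells were lowest at 35.3 CPM.

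Acadm, the medium-chain form, was 109 CPM in stem/FS-like cells, with 98.1, 115, 126 and 96.6 CPM in sets 1 to 4. Fibroblast-like cells came next with 85.0 CPM and 72.6, 90.8, 94.8 and 75.3 CPM in sets 1 to 4, so the ranges nearly met while the order held in each set. Endothelial-like cells had 72.2 and gonadotroph-like cells 55.5 CPM.

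Acads, the short-chain form, had another order. It was 50.8 CPM in gonadotroph-like cells, with 45.1, 52.3, 51.7 and 49.8 CPM in sets 1 to 4, and 38.6 CPM in macrophage-like cells (27.4 to 48.9). In stem/FS-like cells Acads stood at 17.2 CPM. Acadvl, the very-long-chain form, was 63.8 CPM in stem/FS-like, 57.9 in fibroblast-like, 55.5 in gonadotroph-like and 53.7 CPM in corticotroph-like cells, and led in no class. The fibroblast-like range over the sets (48.2 to 78.2) held the ranges of the other 3 classes.

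**Figure D2:**
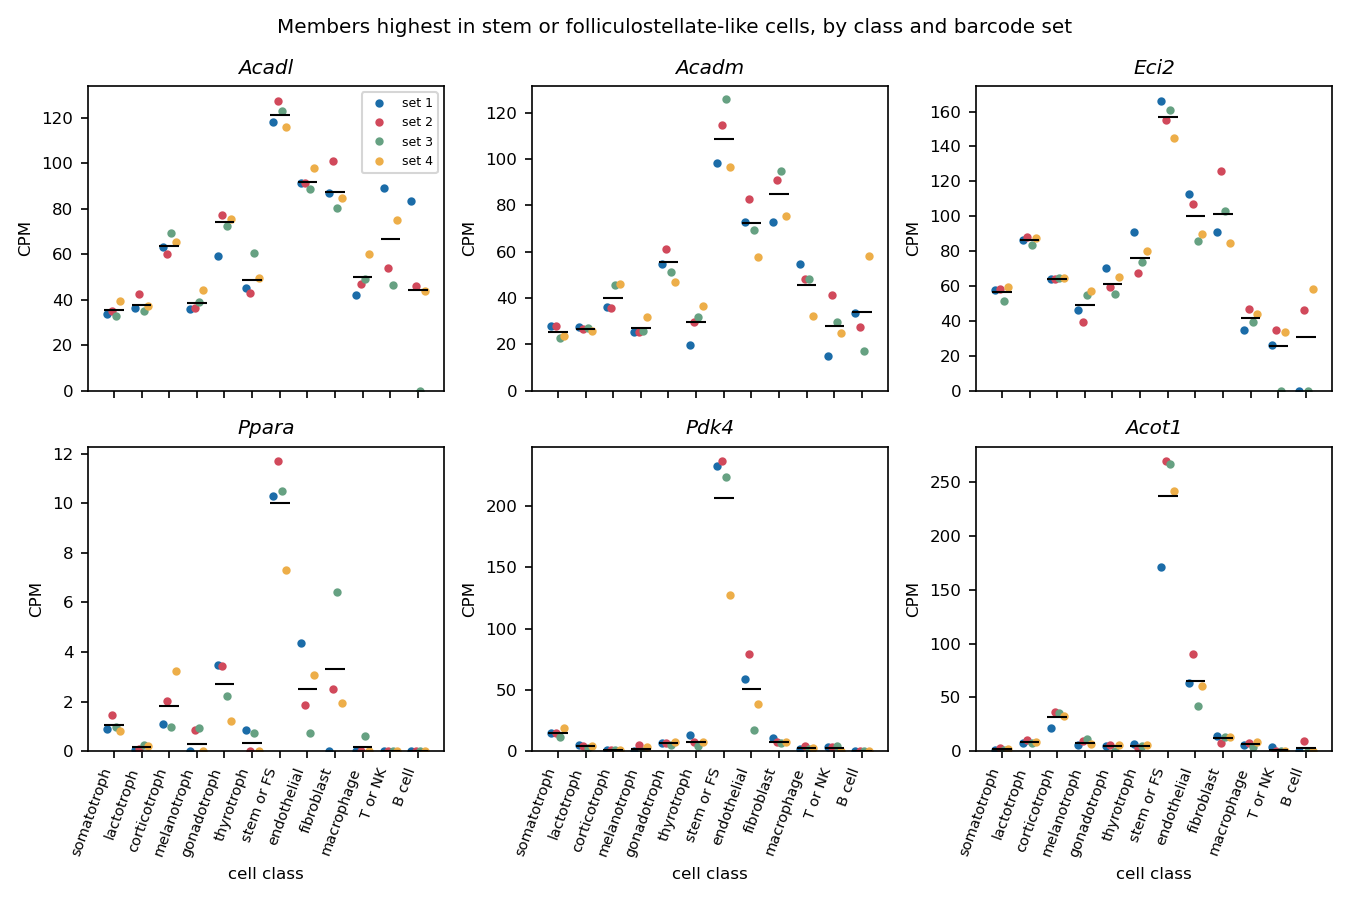
Level (CPM, linear axes from 0) of 6 members in 12 cell classes, with 1 point per barcode set and a black line at the pooled value. In each panel the 4 stem or folliculostellate-like points lie above the points of the same set in every other class. The margin is narrow for Acadm and wide for Pdk4 and Acot1.

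The genes of the later steps followed several patterns. Eci2, an isomerase that moves double bonds of unsaturated chains, was 157 CPM in stem/FS-like cells, with 166, 155, 161 and 145 CPM in sets 1 to 4, against 101 CPM in fibroblast-like and 100.3 CPM in endothelial-like cells. The last 400 bases of its transcript resemble Eci3 (95.1% over 390 bases), so reads may have been split between the copies. Eci1, another isomerase, was 54.5 CPM in corticotroph-like and 49.1 CPM in stem/FS-like cells. Decr1, the reductase for unsaturated chains, was 49.7 CPM in fibroblast-like and 44.0 CPM in stem/FS-like cells, and the stem/FS-like range (40.7 to 47.4) lay within the fibroblast-like one (32.8 to 60.6). Neither Eci1 nor Decr1 led in a class.

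Acaa2, the mitochondrial thiolase, had its highest level in fibroblast-like cells, at 169.9 CPM (interval 151 to 190.0), with 119.8, 219.5, 170.3 and 158 CPM in sets 1 to 4. In stem/FS-like cells it was 103 CPM (89.9 to 113). The fibroblast-like class was above it in each set, although the lowest fibroblast-like value lay close to the stem/FS-like ones. Acaa1a, a peroxisomal thiolase, was 81.1 CPM in fibroblast-like and 67.5 CPM in stem/FS-like cells with no lead, and its transcript end resembles Acaa1b (95.7% over 300 bases).

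The trifunctional protein genes Hadha and Hadhb were highest in gonadotroph-like cells, at 108 and 109.6 CPM, with 99.3 and 106 CPM in corticotroph-like cells. Neither led in all sets. Hadhb shares 246 bases of its transcript end with Gm13910 at 98.8% identity, so its level is uncertain. Hadh, the short-chain hydroxyacyl-CoA dehydrogenase, was 70.8 CPM in stem/FS-like and 56.8 CPM in fibroblast-like cells, which ranged from 42.9 to 72.3 CPM. Echs1, the short-chain enoyl-CoA hydratase, was 72.7 CPM in corticotroph-like cells and ranged there from 70.8 to 74.7 CPM, against 61.2 CPM in fibroblast-like cells. Ehhadh, the peroxisomal bifunctional enzyme, stood at 3.02 CPM in lactotroph-like cells (176 UMIs), and the higher B cell-like value of 3.39 CPM came from 1 UMI.

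Electron transfer flavoprotein passes electrons from the dehydrogenases to the respiratory chain, and its 2 subunit genes differed in their spread over the classes. Etfa was 194 CPM in gonadotroph-like cells (interval 186 to 203), with 175, 209.8, 189 and 173 CPM in sets 1 to 4. Fibroblast-like cells came next with 69.5 CPM, 2.79-fold lower. Etfb was 164 CPM in gonadotroph-like, 148 in corticotroph-like and 145 CPM in fibroblast-like cells, and led in no class. Reads of Etfb may have been lost, because its transcript end is identical to Gm45233 over 400 bases. Etfdh, the oxidoreductase that follows, was 64.1 CPM in lactotroph-like cells (61.8 to 66.7) and 56.5 CPM in gonadotroph-like cells (52.8 to 61.7), with ranges that nearly met.

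Of the 4 counted carnitine shuttle genes 1, Cpt2, led in a class, where 31.6% of all genes did. Cpt1a, the liver form and the gate of the pathway, was 103 CPM in stem/FS-like cells with 93.5, 111, 111 and 99.01 CPM in sets 1 to 4. In fibroblast-like cells Cpt1a was 86.6 CPM with 79.9, 124, 81.9 and 67.5 CPM in sets 1 to 4, so the 2 classes overlapped and the fibroblast-like class was higher in set 2. Melanotroph-like cells had the lowest Cpt1a level, 19.1 CPM. Cpt1c, the neuronal form, was 35.6 CPM in thyrotroph-like and 33.6 CPM in melanotroph-like cells, with overlapping ranges. Cpt2, which releases the acyl-CoA inside the mitochondrion, led in gonadotroph-like cells with 21.3 CPM (19.95 to 26.1) against 17.5 CPM in thyrotroph-like cells, and this lead was lost when hormone genes were left out of library sizes. Slc25a20, the translocase, was 42.0 CPM in stem/FS-like cells, and its 44.1 CPM in B cell-like cells came from 13 UMIs.

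Over all 21 counted enzymes, the median difference from the other classes was highest in fibroblast-like and stem/FS-like cells. In fibroblast-like cells all 21 were above the median of the other classes, where 51.7% of all genes were, and the median difference was 0.62 on the log2(CPM + 1) scale against 0.03 over all genes. In stem/FS-like cells 15 of 21 were above it (51.5% of all genes), with a median difference of 0.55 against 0.02. Gonadotroph- and corticotroph-like cells each had 17 of 21 above it (61.6% and 66.7% of all genes), with 0.39 and 0.34 against 0.14 and 0.21 over all genes. In macrophage-like cells 3 of 21 were above (27.9% of all genes), with a median difference of -0.36 against -0.42, so the count lay under the share of all genes and the median above theirs. Somatotroph-like cells had 1 of 21 above (26.8% of all genes) and a median of -0.39 against -0.30. The share above was also lower for the enzymes than for all genes in lactotroph-, melanotroph-, thyrotroph-, T or NK- and B cell-like cells.

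**Figure D3:**
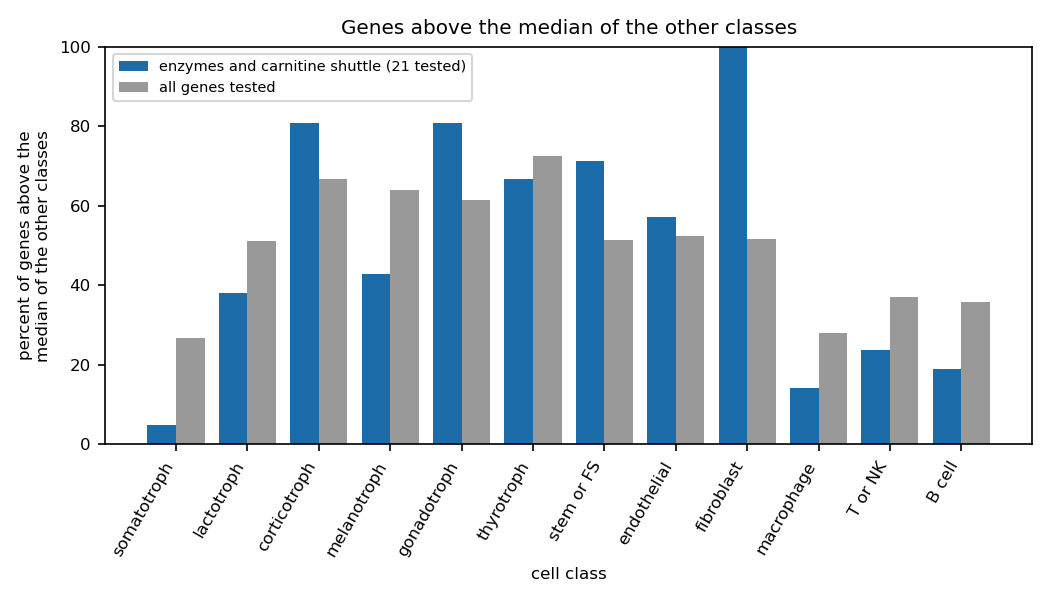
Percent of genes whose CPM in a class lay above the median of the other 11 classes, for the 21 counted enzyme and carnitine shuttle genes (blue) and all 18725 genes counted (grey). The blue bar reaches 100% in fibroblast-like cells, and it stays under the grey bar in somatotroph-, lactotroph-, melanotroph-, thyrotroph-, macrophage-, T or NK- and B cell-like cells.

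The summed level of the 17 beta-oxidation genes was 1245 CPM in stem/FS-like cells, with 1192 to 1267 CPM over the sets. It was 1230.3 CPM in fibroblast-like (1090.2 to 1466) and 1193 CPM in gonadotroph-like cells (1175 to 1200.0). Etfa alone gave 194 CPM of the gonadotroph-like sum, against 64.7 CPM in stem/FS-like and 69.5 CPM in fibroblast-like cells. In the summed level these 3 classes were not separated: the fibroblast-like range holds the other ranges whole, and their order changed with the processing. Corticotroph-like cells followed with 976 CPM and endothelial-like cells with 882 CPM. Macrophage-like cells had 623, somatotroph-like 572 and B cell-like 491 CPM. The somatotroph-like sum was 1029 CPM with hormone genes left out of the library size. On that scale gonadotroph-like cells had 1382, stem/FS-like 1375, fibroblast-like 1370 and corticotroph-like cells 1060 CPM. Endothelial-like cells had 944, macrophage-like 676 and B cell-like cells 552 CPM.

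The same sum was set beside 30 nuclear-encoded respiratory chain genes of the same class, which leaves the library size out. In stem/FS-like cells the enzymes amounted to 25.7% of the respiratory chain sum (24.9% to 27.3% over the sets) and in fibroblast-like cells to 22.1% (20.4% to 23.1%). Endothelial-like cells followed at 17.5% (17.1% to 17.6%). Gonadotroph-like cells, high in the summed level, stood at 12.6% (12.1% to 13.9%), and 20 of the 30 respiratory chain genes led in that class, where 3.51% of all genes did. The stem/FS-like range lay above the range of every other compared class, and the gonadotroph-like range overlapped those of melanotroph-, thyrotroph- and T or NK-like cells, among others. Unnamed clusters 4 and 12, with median UMIs of 1332 and 1776 per cell, reached 23.9% and 24.1%. Both of their sums were low: 500 and 415 CPM for beta-oxidation, against 1245 CPM in stem/FS-like cells. The respiratory chain sums were 2096 and 1723 CPM, against 4838 CPM in stem/FS-like cells.

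**Figure D4:**
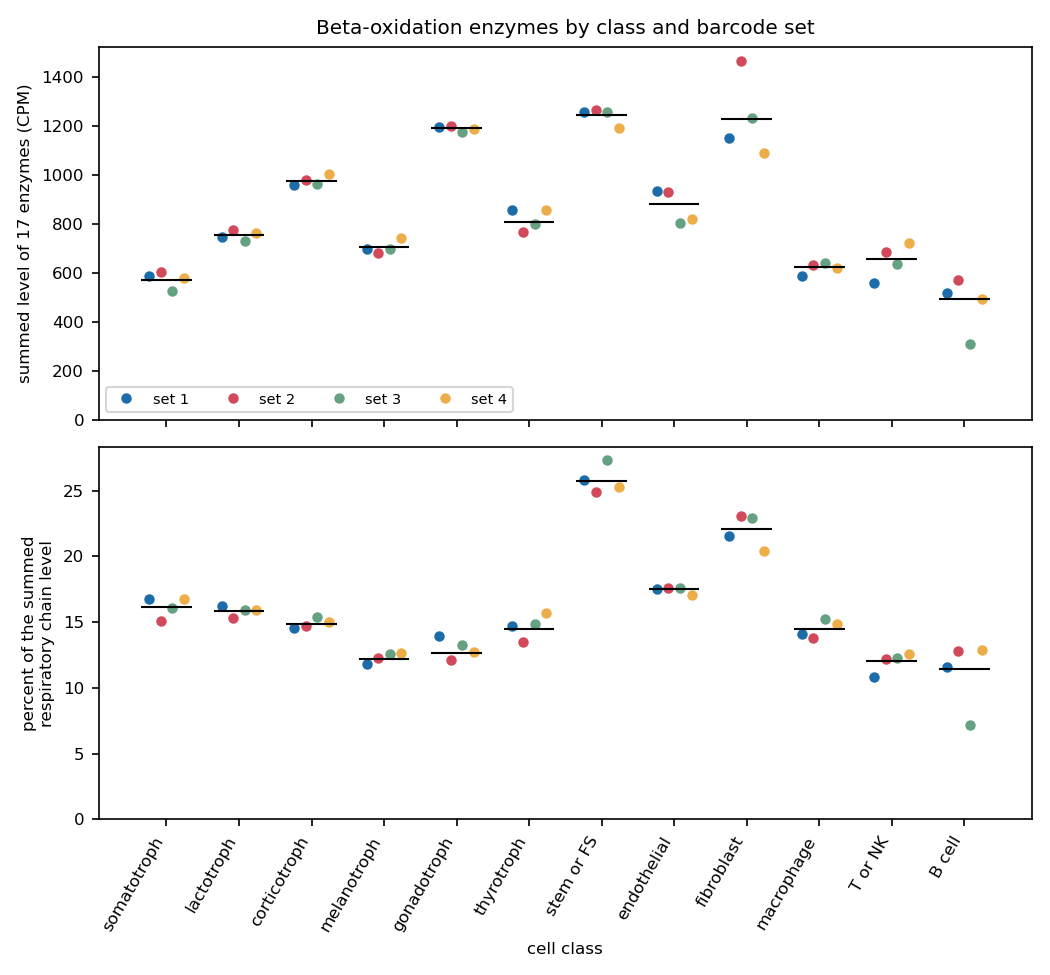
Summed level of 17 beta-oxidation genes in CPM (top) and as a percent of the summed level of 30 respiratory chain genes (bottom), by cell class, with 1 point per barcode set and a line at the pooled value. Gonadotroph-like cells are near stem or folliculostellate-like cells in the top panel and among the low classes in the bottom panel.

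Of the 6 lipid uptake and storage genes 4 led in a class, where 31.6% of all genes did. These were Cd36 and Plin2 in macrophage-like cells (3.25% of all genes), Fabp4 in endothelial-like cells (3.59%) and Angptl4 in fibroblast-like cells (3.54%). None of the 6 led in a hormone class, where from 0.401% (somatotroph-like) to 3.56% (corticotroph-like) of all genes led in each. With only 6 genes that count is near these shares, so it describes the list and does not set these genes apart. Fabp3 and Fabp5 had their highest pooled levels in gonadotroph- and corticotroph-like cells. The summed level of the 6 genes was 745 CPM in macrophage-like, 572 in endothelial-like, 353 in fibroblast-like and 311 CPM in stem/FS-like cells. It was lowest in lactotroph-like cells at 51.0 CPM.

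Plin2, a coat protein of lipid droplets, was 584 CPM in macrophage-like cells (interval 565 to 603), with 594, 652, 506 and 577 CPM in sets 1 to 4. Fibroblast-like cells came next with 41.4 CPM, 14.1-fold lower, and endothelial-like cells had 40.3 CPM. The lowest macrophage-like set lay far above the highest value of any other class. A Plin2 UMI was found in 64.2% of macrophage-like cells and in 0.725% of B cell-like cells, or in 40.5% and 0.781% with 1000 UMIs per cell, and the median depths were 3641 and 1472 UMIs.

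Cd36, a fatty acid transporter and scavenger receptor, was 26.7 CPM in macrophage-like cells from 173 UMIs, with 36.6, 33.8, 17.9 and 20.1 CPM in sets 1 to 4. Endothelial-like cells had 3.24 CPM and gonadotroph-like cells 1.96 CPM, and the B cell-like value of 3.39 CPM rests on 1 UMI. Unnamed cluster 17, of 159 cells led by Cd209a, Tnip3 and Mgl2, reached 62.4 CPM, and unnamed cluster 24, of 192 cells led by Rgs5 and Pdgfrb, 32.6 CPM (interval 25.2 to 41.6). With unnamed clusters counted as classes Cd36 no longer led in macrophage-like cells.

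Fabp4, a fatty acid binding protein known from fat cells, macrophages and capillaries, was 404 CPM in endothelial-like cells, with 434, 394, 403 and 373 CPM in sets 1 to 4. Every other compared class was at or under 4.41 CPM, and macrophage-like cells stood at 2.47 CPM. Unnamed cluster 24, led by the mural genes Rgs5, Pdgfrb and Abcc9 and also holding endothelial markers, had 256 CPM. Fabp3, the heart form, was 54.7 CPM in gonadotroph-like cells and 40.3 CPM in stem/FS-like cells. It led in no class. Stem/FS-like cells, with 36.9, 31.9, 72.6 and 24.6 CPM in sets 1 to 4, were highest in set 3, and B cell-like cells in set 4, from 7 UMIs. Its transcript end resembles Fabp3-ps1 (98.8% over 162 bases).

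Fabp5, the epidermal form, was 132 CPM in corticotroph-like, 124 in macrophage-like, 122 in thyrotroph-like and 109 CPM in somatotroph-like cells. These 4 classes overlapped over the sets, and gonadotroph-like cells were lowest at 24.01 CPM. Angptl4, a secreted inhibitor of lipoprotein lipase, was 263 CPM in fibroblast-like cells with 287, 368, 233 and 206 CPM in sets 1 to 4, and 204 CPM in stem/FS-like cells with 164, 286, 199 and 150.2 CPM in sets 1 to 4. Fibroblast-like cells were higher in each set although the ranges overlapped, both classes were highest in set 2, and endothelial-like cells came next with 49.3 CPM.

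**Figure D5:**
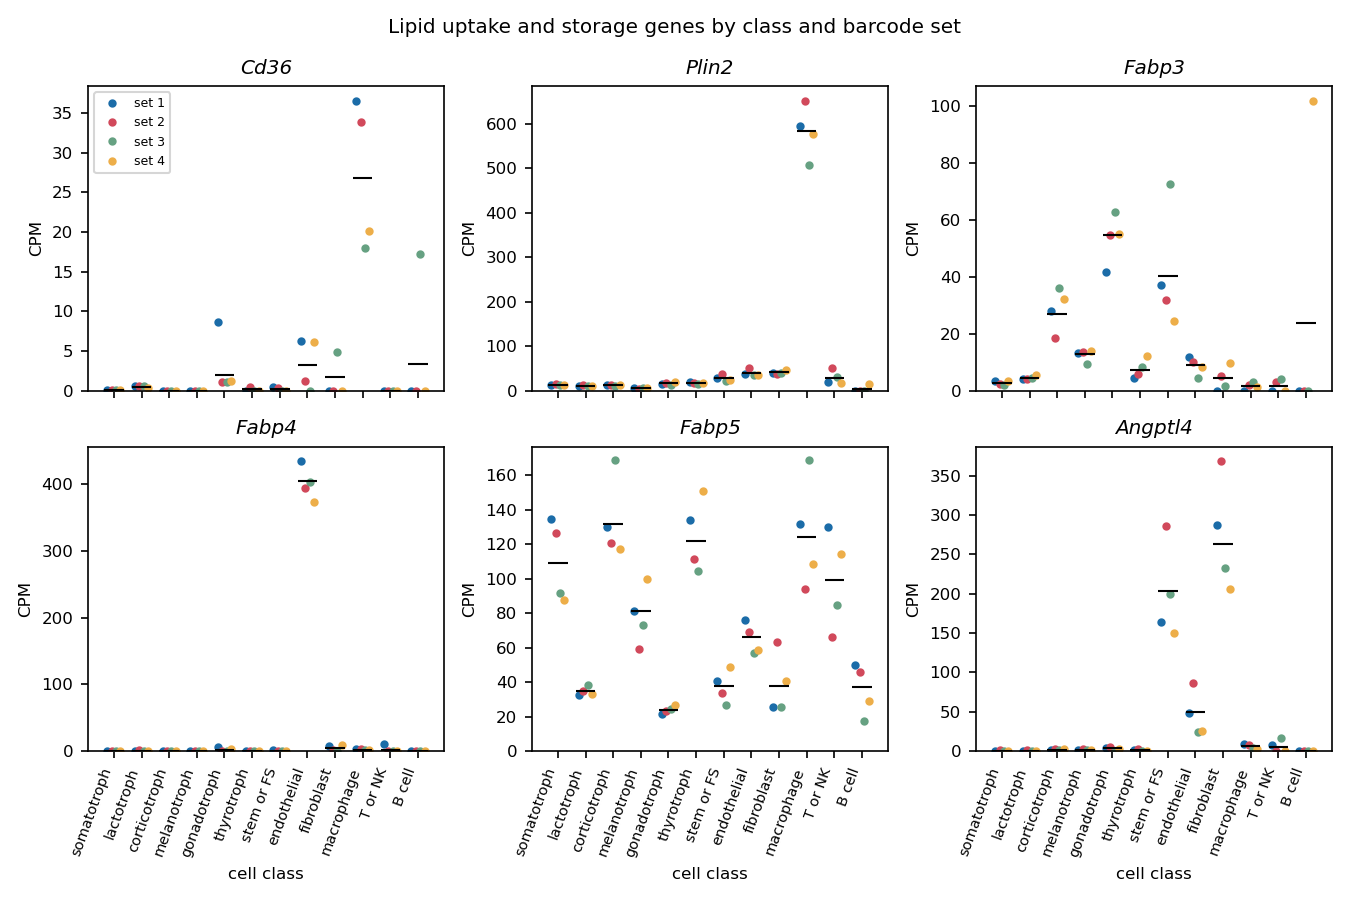
Level (CPM, linear axes from 0) of the 6 lipid uptake and storage genes in 12 cell classes, with 1 point per barcode set and a black line at the pooled value. Plin2 and Fabp4 are each high in 1 class, Angptl4 in fibroblast- and stem or folliculostellate-like cells, and Fabp5 is spread over several classes.

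Ppara and Pparg had low counts, 437 and 197 UMIs over the 12 classes, and Ppard had 3919. Ppara led in stem/FS-like cells, and Pparg and Ppard in macrophage-like cells, where 3.25% of all genes led. Ppara, the receptor tied to oxidation genes in liver, was 10.0 CPM in stem/FS-like cells from 188 UMIs, with 10.3, 11.7, 10.5 and 7.31 CPM in sets 1 to 4. Fibroblast-like cells came next with 3.31 CPM from 6 UMIs, and 3.72% of all genes led in the stem/FS-like class. Pparg, the receptor of fat storage, was 10.7 CPM in macrophage-like cells from 69 UMIs, with 7.95, 17.4, 11.3 and 4.26 CPM in sets 1 to 4. Endothelial-like cells came next with 2.88 CPM, and in set 4 the values rest on 7 macrophage-like and 2 endothelial-like UMIs. The Pparg lead was not kept with unnamed clusters as classes, where unnamed cluster 17 had 5.94 CPM from 6 UMIs. Ppard, the widely expressed form, was 31.7 CPM in macrophage-like cells (25.4 to 34.9) and 20.3 CPM in melanotroph-like cells. Ppargc1a, a coactivator of mitochondrial genes, was 16.3 CPM in stem/FS-like, 12.9 in corticotroph-like and 11.9 CPM in melanotroph-like cells, with overlapping ranges and no lead.

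Among the 4 other targets, Pdk4 and Acot1 had wide leads in stem/FS-like cells. Pdk4, the kinase that shuts off pyruvate dehydrogenase, was 207 CPM there, with 233, 237, 223 and 128 CPM in sets 1 to 4, against 51.0 CPM in endothelial-like cells (17.6 to 79.6). Set 4 was low in the former, but still above the highest endothelial-like value. Acot1, a cytosolic acyl-CoA thioesterase, was 237 CPM, with 171, 269.9, 267 and 242 CPM in sets 1 to 4, against 65.6 CPM in endothelial-like and 32.1 CPM in corticotroph-like cells. Acot2, its mitochondrial relative, was 43.6 CPM in stem/FS-like and 29.2 CPM in fibroblast-like cells, and led in no class. Ucp2, a mitochondrial carrier, was 1046 CPM in macrophage-like cells (973 to 1098), against 559 CPM in corticotroph-like cells (548 to 582).

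Pituicytes are the glia of the neural lobe, and pituicyte-like cells were left out of the comparison. Their summed beta-oxidation level was 1489 CPM, or 19.3% of their respiratory chain sum, and they held Acaa2 at 215, Eci1 at 127, Acot1 at 172 and Angptl4 at 169 CPM. Acot2 was 81.7 CPM in them (interval 68.0 to 97.2), above its 43.6 CPM in stem/FS-like cells.

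Members also differed between clusters within a class. The stem/FS-like class held cluster 7 (1472 cells, median 8885 UMIs) and cluster 8 (486 cells, median 937.5 UMIs), both led by markers of the class. Pdk4 was 227 CPM in cluster 7 and 54.8 in cluster 8, Acot1 259 and 77.4, and Angptl4 226 and 39.8 CPM. The enzyme Acadl was 129 and 65.9 CPM and Acadm 114 and 66.8 CPM, a smaller gap. Fabp5 went the other way, with 31.3 CPM in cluster 7 and 84.0 CPM in cluster 8. The part of depth in these gaps was not tested.

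The macrophage-like class held 3 clusters. Cluster 15 (979 cells) was led by Ms4a7, Cxcl2 and Mmp12, cluster 22 (263 cells) by Siglech, Crybb1 and Il1a with P2ry12 and Gpr34 among its leading genes, and cluster 16 (427 cells) had a median of 819 UMIs. Cd36 was 37.9 CPM in cluster 15, 2.34 in cluster 22 and 8.72 CPM in cluster 16. Pparg was 15.2, 0.779 and 3.27 CPM in the same order. Plin2 was 754, 363 and 101 CPM, so that cluster 22 held the droplet gene while holding little Cd36 and Pparg. The whole class had 173 Cd36 and 69 Pparg UMIs, so the low cluster values of these 2 genes rest on few UMIs. Cd36 ranged from 0 to 4.03 CPM over the sets in cluster 22. Acads and Ppard were highest in cluster 22, at 73.3 and 41.3 CPM, against 33.0 and 32.3 CPM in cluster 15. The Cd36 ranges of clusters 15 and 22 did not overlap over the sets.

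Other genes of the pathway were counted by list, and 31.6% of all genes led in some class. Of 16 counted acyl-CoA synthetase and fatty acid transport genes 9 led in a class, and 5 of these in stem/FS-like cells (3.72% of all genes). Slc27a1, a fatty acid transporter, was 168 CPM there (151 to 184), against 63.3 CPM in corticotroph-like cells. Acsl1, which activates long-chain fatty acids, was 247 CPM in macrophage-like cells (193 to 338), and Gpihbp1, which holds lipoprotein lipase on capillaries, was 78.9 CPM in endothelial-like cells (67.3 to 98.4).

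Among the ketone body genes, Bdh2, a hydroxybutyrate dehydrogenase, was 85.3 CPM in stem/FS-like cells (67.6 to 95.7), against 60.1 CPM in fibroblast-like and 15.7 CPM in endothelial-like cells.

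Among lipid droplet and lipase genes 6 of 11 led in a class, against 31.6% of all genes. Mgll, the monoacylglycerol lipase, was 196 CPM in endothelial-like cells (182.3 to 206), Dgat1 135 CPM in T or NK-like cells (117 to 175) and Dgat2 30.8 CPM in stem/FS-like cells (25.03 to 34.0). Dgat1 and Dgat2 make triglyceride from diacylglycerol. Of 15 PPAR partners and regulators 4 led in a class, close to the 31.6% of all genes. Sirt3, a mitochondrial deacetylase, was 102 CPM in corticotroph-like cells (96.9 to 113), Acacb, whose product inhibits CPT1, 36.9 CPM in corticotroph-like cells (35.6 to 39.3), and the retinoid X receptor gene Rxrg 115 CPM in thyrotroph-like cells (103 to 132).

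Of 15 peroxisomal genes 4 led in a class, a share close to the 31.6% of all genes. Phyh, the enzyme for phytanic acid, was 193 CPM in gonadotroph-like cells (178 to 207), Crot 101 CPM in T or NK-like cells (89.0 to 112) and Abcd2, a peroxisomal acyl-CoA transporter, 29.2 CPM in macrophage-like cells (23.0 to 36.4). Of 15 other mitochondrial acyl-CoA genes 1 led, where 31.6% of all genes did: Acad11 with 60.1 CPM in stem/FS-like cells (52.5 to 66.5). Of 12 tricarboxylic acid cycle genes 3 led in a class (31.6% of all genes), 2 of them in gonadotroph-like cells (3.51% of all genes).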

How the data were processed

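Whole mouse pituitary was profiled by single-cell RNA sequencing. The authors deposited a single matrix of raw UMI counts, which Cell Ranger 8.0.1 wrote per the file headers. Seurat is named without a version per the submitters' processing notes, and no source used here states the build or annotation. Because no source ties barcode numbers to libraries, all barcodes were taken as 1 pooled sample and the planned diet test was not run.

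Barcodes with at least 500 UMIs, 250 genes and at most 25% mitochondrial UMIs were kept, which removed 567. Scrublet in scanpy 1.11.5, run per set, marked 3833 doublets (9.62%), which were removed. After scaling to 10000 counts per cell and a log transform, clustering used 2000 variable genes without members or the pathway and reference lists, 30 principal components, 15 neighbours and Leiden resolution 1.0. Of 26 clusters, 5 stayed unnamed. A name needed at least 50 cells and 3 markers of its class with a log2 fold of 0.5 or more and detection in 25% of cells, no second such class, and no excess of another class among the top 10 genes. These thresholds were set after seeing the data, and the names describe clusters rebuilt here.

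UMIs were summed per class and set, for classes that had 20 or more cells in each set. Leads were counted over all genes with at least 100 UMIs. The members and lists were chosen with earlier results of these data known. All members are named. Of each other pathway list, up to 3 genes are named that lead in 1 class with at least 100 UMIs there, ranked by fold over the next class. Not every gene named by this rule is reported here. Transcript ends (400 bases) were compared in GENCODE vM21, and an identity of 95% over 90 bases or more counted as a copy.

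In simulated counts of 18725 genes without differences between sets beyond sampling, the lead rule recovered 75 of 100 genes raised 4.0-fold in 1 class and 12 of 100 raised 1.5-fold, and called 0.874% of 18525 level genes. Alternatives kept doublets, used a stricter filter (1000 UMIs, 500 genes, 10% mitochondrial), resolution 0.5, marker scores, hormone-free library sizes, thinned class sums, members among the clustering genes, a minimum of 1000 UMIs per gene or dropped single sets. Sums and intervals were computed in Python 3.11.15 (scipy 1.17.1, pandas 2.3.3).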

Additional observations from a re-analysis of the deposited data

Results flagged for a closer look

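In 3 cases an unnamed cluster, which entered no class, held a member above the interval of every named class. Cpt1c was 58.3 CPM in unnamed cluster 4 (interval 50.6 to 66.8, 208 UMIs), against 35.6 CPM in thyrotroph-like cells. Cluster 4 holds 2022 cells with a median of 1332 UMIs, is led by mitochondrial genes, and carries 27.0% hormone UMIs. Slc25a20 was 105.9 CPM in unnamed cluster 17 (86.8 to 128.0, 107 UMIs), against 44.1 CPM in B cell-like cells. Cd36 was 62.4 CPM in the same cluster (47.9 to 79.8, 63 UMIs), against 26.7 CPM in macrophage-like cells. Cluster 17 holds 159 cells and is led by Cd209a, Tnip3, Mgl2 and Plac8.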

How the results depend on the processing

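The 3 enzyme leads in stem/FS-like cells (3.72% of all genes led there) became 5 by marker score (4.26%) and 2 with thinned class sums (1.74%). Without single sets they were from 3 to 4, where from 3.99% to 4.65% of all genes led there. In macrophage-like cells 3.25% of all genes led in the main setting. The 2 uptake and storage leads there became 1 with thinned class sums, with at least 1000 UMIs per gene, and with unnamed clusters as classes. They stayed at 2 without single sets, which the rule fixes, because a lead in 4 sets is also one in any 3 of them. Cd36, with 259 UMIs over the classes, could not enter the count at 1000 UMIs per gene. With unnamed clusters as classes, unnamed cluster 17 was above the macrophage-like class in Cd36. The summed beta-oxidation level in stem/FS-like cells (1245 CPM) moved to 1125 CPM with doublets kept, 1266 CPM at resolution 0.5, 1375 CPM with hormone-free library sizes, 1332 CPM with thinned class sums and 1293 CPM with clusters of few UMIs left out, and from 1236 to 1261 CPM without single sets. The cause was not tested, apart from the smaller denominator without hormone genes. The highest summed level then belonged to gonadotroph-like (1143 and 1382 CPM, doublets kept and hormone-free), fibroblast-like (1277 CPM at the stricter filter and at resolution 0.5) or pituicyte-like cells (1249 CPM, marker score), and to fibroblast-like cells without set 1 (1245 CPM) or set 4 (1286 CPM). The leads of Acadl, Etfa, Plin2, Fabp4, Ucp2 and Acot1 held in all 15 alternatives. Those of Acadm, Eci2 and Pdk4 held in 14 and were not found with class sums thinned to between 57909 and 108525 UMIs. After thinning 5926 genes could be counted, with 16 of the 21 enzyme members. The leads of Acaa2, Etfdh, Ppara and Angptl4 held in 13, of Cd36 and Pparg in 12, of Cpt2 and Ppard in 11 and of Acads in 10. In these tallies a gene under the UMI minimum of a setting has no lead. At 1000 UMIs per gene this took out Ppara (437 UMIs over the classes), Cd36 (259) and Pparg (197). Dropping a single set or the B cell class could not remove a lead of these members while the gene was still counted. The minimum of 1000 UMIs could not remove one from a gene above it. Those alternatives were fixed in advance for such leads, so the tallies overstate how firm the leads are. The 18 members with a lead became 23 without set 2, where Hadha, Acaa1a, Echs1, Etfb and Cpt1a gained one, and 22 without set 4, but 14 with unnamed clusters as classes and 8 with thinned class sums. With a set dropped the rule is easier to meet, so the count could rise but, among genes still counted, not fall. The share of all genes with a lead in some class is not given here for these settings, so the totals cannot be set beside it. By marker score Angptl4 led in stem/FS-like cells. Members' levels in their highest class moved by more than counting error in 115 of 420 comparisons. Clusters with few UMIs, the B cell class and unnamed clusters were chosen as alternatives after seeing the data. The 295064 UMIs of B cell-like cells give the widest intervals. No paired analysis was possible because the barcode numbers name neither libraries nor replicates.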
